A study of Mus musculus with 18 samples.

Results

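The cells described here are Sox2-positive cells of C57BL/6 WT mouse embryos at embryonic day (E) 7.5 that held no transcript of Mesp1 or Foxa2, divided by whether they held a transcript of T. Of 972 cells with at least 2000 transcripts in all libraries, 429 came from E7.5 and 129 of these met the rule. T was found in 59 of them (T-positive) and not in 70 (T-negative). The embryos carried no engineered allele or treatment per the labels. At E7.5 they were trimmed below the chorion, so that extraembryonic mesoderm stayed in, the embryos of 1 or 2 litters were pooled, and cells sorted by flow cytometry were processed with mCEL-Seq2 in 12 libraries of 96 cells. At E6.75 single embryos without their extraembryonic part gave hand-picked cells for 6 CEL-Seq2 libraries, which were used here for 1 comparison of stages. Stage, collection and protocol changed together and cannot be told apart. The labels do not tie cells to embryos, and libraries may share a pool, so p-values measure the spread between libraries. All libraries drew on the same set of plate barcodes, so a barcode shared by libraries does not mark a shared cell.

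Sox2 encodes a transcription factor of the epiblast and later of the neural plate. T (Brachyury) encodes the founding member of the T-box transcription factors and marks the primitive streak, through which epiblast cells leave to form mesoderm and endoderm. Epiblast cells beside and behind the streak hold both proteins, stay under WNT and FGF signals, and feed the spinal cord and the trunk mesoderm, whereas anterior ectoderm keeps Otx2 and forms brain and head surface. Mesp1, a gene of early mesoderm, and Foxa2, a gene of endoderm and axial mesoderm, were used to leave out cells that had already left the epiblast.

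Upstream sequences of the genes on which the results turn are shown first, because T codes for a DNA-binding protein and WNT signals act through TCF/LEF proteins. Each is the 250 bases before the start that RefSeq gives, 5′ to 3′ on the gene's strand, on GRCm38.p6. Capitals mark AGGTGT, the core of a T-box site, and CTTTGA, a TCF/LEF site, each searched on both strands.
T (chr17:8434173-8434422, plus strand): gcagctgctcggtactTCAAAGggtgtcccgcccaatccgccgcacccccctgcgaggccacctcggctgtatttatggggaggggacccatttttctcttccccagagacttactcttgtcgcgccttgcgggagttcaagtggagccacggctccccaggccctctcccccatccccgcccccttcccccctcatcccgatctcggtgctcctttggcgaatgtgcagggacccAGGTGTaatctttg
Sp5 (chr2:70474673-70474922, plus strand): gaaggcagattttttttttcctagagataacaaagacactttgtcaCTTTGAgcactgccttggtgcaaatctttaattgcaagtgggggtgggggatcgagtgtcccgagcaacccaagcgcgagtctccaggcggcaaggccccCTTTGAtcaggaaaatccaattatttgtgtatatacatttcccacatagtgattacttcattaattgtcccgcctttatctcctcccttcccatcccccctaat
Meis2 (chr2:116064620-116064869, minus strand): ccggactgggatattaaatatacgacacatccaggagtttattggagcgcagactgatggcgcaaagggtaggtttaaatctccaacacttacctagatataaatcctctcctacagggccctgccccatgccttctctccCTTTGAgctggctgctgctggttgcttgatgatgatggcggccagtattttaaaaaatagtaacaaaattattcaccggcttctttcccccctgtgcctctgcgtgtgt
Nkx1-2 (chr7:132599638-132599887, minus strand): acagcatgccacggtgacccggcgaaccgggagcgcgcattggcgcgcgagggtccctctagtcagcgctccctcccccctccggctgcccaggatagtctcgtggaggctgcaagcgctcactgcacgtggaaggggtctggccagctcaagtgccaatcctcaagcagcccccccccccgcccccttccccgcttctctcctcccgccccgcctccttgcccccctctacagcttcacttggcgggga
The T sequence held 1 match to each motif, that of Sp5 held 2 TCF/LEF matches, that of Meis2 held 1, and that of Nkx1-2 held none of either. Of 20 genes looked up, upstream sequences of 12 were searched. The others, the caudal gene Cdx1 among them, were not searched and are not in these counts. Among the 12 genes, 3 held a TCF/LEF match and 2, T and Evx1, a T-box core match. Dnmt3b, Grsf1, Hoxb1, Irx3, Otx2, Prtg and Wnt3a held neither. Among 32851 upstream sequences of the same length, 11.8% held AGGTGT and 13.8% held CTTTGA. The longer T-box site AGGTGTGA, which contains AGGTGT, was in 1.12% of them and in none of these 4. The matches are a description of letters. The start used for Meis2 lies inside the gene as GENCODE draws it.

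The members were chosen by their own counts of Sox2, T, Mesp1 and Foxa2, which are given without a test. T-positive cells held from 1 to 119 T transcripts: 23 cells held 1, 10 held 2 and 26 held at least 3. Just outside the rule lay 36 Sox2-positive cells that held Mesp1 and 32 that held Foxa2, of 193 Sox2-positive cells in all. Just inside it, 26 members held a single Sox2 transcript. Sox2 had a median of 3 transcripts in T-positive and 6 in T-negative cells. As a background for single transcripts, 2 of 18 E6.75 cells with at least 50 transcripts of the visceral endoderm genes Ttr and Apoa1 held a T transcript (11.1%, exact 95% binomial interval 1.38% to 34.7%). None of these 18 held 3 or more T transcripts. Their median depth was 28711 transcripts. They come from other libraries, so the background in the E7.5 libraries was not measured. The T-positive cells are described below both together and split at 3 transcripts.

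Libraries with at least 3 cells of each kind entered the test: replicate 3 with 14 T-positive and 18 T-negative cells, replicate 4 with 12 and 26, replicate 7 with 7 each, and replicate 12 with 4 and 5. The tested libraries thus held 93 of the 129 members. Summed transcripts ranged from 116003 to 522008 on the T-positive side. Median depth per cell was 30436 transcripts in all T-positive and 30654 in all T-negative members. Within libraries, the log2 difference of median depth averaged 0.15 (SD 0.903, n = 4; p = 0.875 by an exact permutation of signs, two-sided, where 0.125 is the smallest possible p). T-positive cells were deeper by 1.47 on the log2 scale in replicate 7 and shallower or about level in the others, and the mean difference was −0.29 without replicate 7. No cell of replicate 12 held more than 2 T transcripts. One of its 4 T-positive cells held 15 transcripts of Elf5, a gene that defines extraembryonic ectoderm, with 85 of Rhox5 and 16 of Eomes. The summed extraembryonic ectoderm markers (14 of 14 found in the files) were 2516 CPM (counts scaled to a common library total) on that side of replicate 12, against 162 to 323 in the other T-positive sums and 341 to 576 in the T-negative ones. Results that rest on replicate 12 are therefore given with and without it.

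Together, the T-positive cells differed from the T-negative cells in 3 genes. Of 5137 genes tested, 2 were higher (0.0389%), Meis2 among them, and Dnmt3b was lower (0.0195%), 0.0584% in all (edgeR quasi-likelihood test with the library as block, Benjamini-Hochberg adjusted p under 0.05). Levels below are CPM after edgeR's scaling, and differences are log2 fold changes.

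Meis2 encodes a TALE homeodomain factor that acts with HOX proteins and lies on chromosome 2 at 115863064 to 116065839 (GRCm38, minus strand). T-positive cells held 126, 111, 82.8 and 27.96 in replicates 3, 4, 7 and 12, and T-negative cells 36.4, 10.3, 33.3 and 18.9. It was higher in T-positive cells in 4 of 4 libraries, with the smallest gap in replicate 12, through which the ranges overlapped. Of all genes tested, 12.8% had 1 sign in every library, in either direction. The log2 fold change was 1.99 (SE 0.36; adjusted p = 0.0384, edgeR).

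Dnmt3b encodes a de novo DNA methyltransferase of the epiblast and lies on chromosome 2 at 153649450 to 153687730 (plus strand). It was abundant on both sides, at 3514, 2804, 2638 and 2283 in T-positive and 3685, 4637, 4459 and 4388 in T-negative cells. Every T-positive value lay below every T-negative value, as was so in either direction for 2.26% of genes tested. The gap was small in replicate 3. The log2 fold change was −0.61 (SE 0.10; adjusted p = 0.0227, edgeR). An antisense gene, Dnmt3bos, overlaps Dnmt3b, and whether counting used strand is not given in the sources used here.

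The calls depended on the library term and on single libraries. Without the block 0 genes were called (158 at an unadjusted p under 0.05), and DESeq2 also called 0 (55 at an unadjusted p under 0.05). Leaving out replicate 4 or replicate 7 left 0 calls as well. Leaving out replicate 3 gave 8, among them Dnmt3b but not Meis2, which was then too low to be tested. Without replicate 12, or without the 1 cell of replicate 12 that held Elf5, the counts rose to 26 and 12 genes. All 3 genes remained called in both, and each of the 3 kept its direction in every alternative in which it could be tested. With the filter on low counts lifted, 39 of 16822 genes were called (0.232%), 29 higher (0.172%) and 10 lower (0.0594%).

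**Figure D1:**
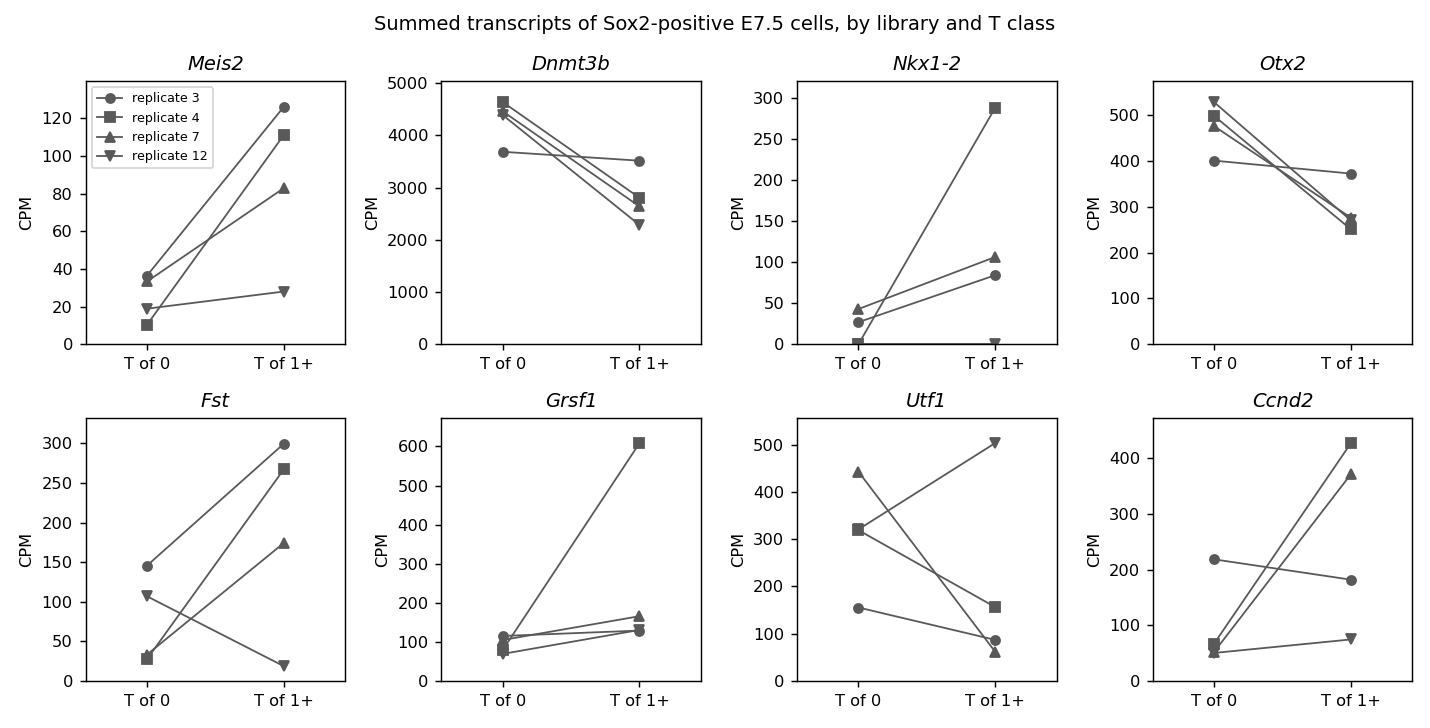
CPM in the summed T-negative (T of 0) and T-positive (T of 1+) cells of each E7.5 library, for 8 genes. Lines join both sums of 1 library. Meis2 rises and Dnmt3b falls along all 4 lines, while in Nkx1-2 replicate 12 is at 0 on both sides, and in Fst and Utf1 it runs against the other 3 libraries.

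Among the genes that mark caudal epiblast, 6 of 18 were abundant enough to be tested over the 4 libraries and none passed. Nkx1-2, a homeobox gene of the caudal epiblast, had the largest difference at 2.93 on the log2 scale (SE 0.61; adjusted p = 0.136, edgeR). It stood at 84.0, 288, 106 and 0 in T-positive and at 26.8, 0, 42.8 and 0 in T-negative cells of replicates 3, 4, 7 and 12. Replicate 12 thus held no transcript on either side. Fst, which encodes the activin and BMP antagonist follistatin, differed by 1.55 (SE 0.40; adjusted p = 0.403). Its value was 300, 267, 174 and 18.6 in T-positive and 146, 27.6, 33.3 and 107 in T-negative cells, so that only replicate 12 ran the other way. Grsf1, an RNA-binding protein gene, differed by 1.32 (SE 0.34; adjusted p = 0.403) and was higher in 4 of 4 libraries. Such agreement in either direction held for 12.8% of genes tested. Nkd1, a feedback inhibitor of WNT signalling, differed by 1.60 (SE 0.44; adjusted p = 0.462). The median log2 fold change of the 6 genes was 1.43, against 0.00 for all genes tested.

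Without replicate 12, 18 genes were higher (0.285%) and 8 lower (0.127%) in T-positive cells, of 6315 tested (0.412% in all). Of the caudal epiblast list 6 of 8 tested genes were called, all higher, with Grsf1 (1.42; adjusted p = 0.00679) among them: Nkx1-2 at 2.98 (SE 0.46; adjusted p = 0.000164, edgeR), Fst at 1.94 (adjusted p = 2.23e-05), Sp5 at 2.55 (adjusted p = 0.00415), Wnt8a at 2.35 (adjusted p = 0.0491) and Nkd1 at 1.67 (adjusted p = 0.0491). Sp5 is a direct target of WNT signals in many tissues, and Wnt8a encodes a WNT ligand of the streak. Hoxb1, one of the first HOX genes to come on in the posterior embryo, was called at 4.67 (SE 0.41; adjusted p = 2.59e-10). With 18 transcripts over all 70 T-negative members, it could pass the filter on low counts through the T-positive side alone. Genes of the pluripotent epiblast were among the 8 lower ones, with Utf1 at −1.58 (adjusted p = 0.000164), Trh at −2.30 (adjusted p = 0.00171) and L1td1 at −0.95 (adjusted p = 0.0491). L1td1, like the imprinted genes H19 and Peg10 that were also lower, is named after its values were seen. In the test over 4 libraries, Utf1 differed by −1.01 (adjusted p = 0.68) and Trh by −1.85 (adjusted p = 0.426). With the filter on low counts kept, most of these calls needed all of replicate 12 left out. With that filter lifted, the test over 4 libraries called Nkx1-2, Fst, Grsf1, Sp5, Wnt8a, Hoxb1, Utf1 and Trh in the same directions. Nkd1, L1td1, H19 and Peg10 were not called there. With the filter kept and only the Elf5 cell of replicate 12 removed, Nkx1-2 (2.96; adjusted p = 0.00197), Fst (1.64; adjusted p = 0.0111) and Grsf1 (1.34; adjusted p = 0.0364, edgeR) were called. Sp5, Wnt8a, Nkd1, Hoxb1, Utf1, Trh, L1td1, H19 and Peg10 were not among the genes called with that cell removed.

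The anterior and neural ectoderm list showed no call over 4 libraries in 12 members tested, with a median of 0.18 on the log2 scale. Otx2, the homeobox gene of the anterior epiblast and forebrain, stood at 372, 251, 276 and 270 in T-positive and at 401, 498, 476 and 528 in T-negative cells. The groups did not overlap, as was so in either direction for 2.26% of genes tested. The difference of −0.67 (SE 0.17) missed the threshold (adjusted p = 0.403, edgeR). Six3, Sox3, Pou3f1, Irx3 and Zic2 had differences from −0.39 to 0.37, each with an adjusted p of 0.999. Crabp2, a retinoic acid-binding protein gene, was 0.90 (SE 0.25; adjusted p = 0.472) and higher in 4 of 4 libraries, where 12.8% of genes tested had 1 sign in every library.

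In the epiblast and pluripotency list, 10 of 13 tested members had negative values and 1, Dnmt3b, was called. The median was −0.54. Pim2, a serine/threonine kinase gene, was lower in 4 of 4 libraries at −0.68 (SE 0.17; adjusted p = 0.395, edgeR), where 12.8% of genes tested had 1 sign in every library. Pou5f1 was −0.34 (adjusted p = 0.999), and Nanog was 0.96 (SE 0.36; adjusted p = 0.925) and higher in 3 of 4 libraries. Cdh1 (E-cadherin), Cdh2 (N-cadherin), Vim (vimentin) and Fn1 (fibronectin), whose balance shifts as cells leave the epithelium, ranged from 0.16 to 0.59 with adjusted p of 0.999 each. Among 27 cell cycle genes tested, none was called. Ccnd2, which encodes cyclin D2, had the highest value of them, 1.44 (SE 0.38; adjusted p = 0.403), and was called without replicate 12 (1.47; adjusted p = 0.00588).

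None of 11 tested WNT, 7 FGF, 5 NODAL, 5 BMP and 5 Notch pathway genes was called, and the medians lay between −0.10 and 0.02. Several ligands of the streak were too low to be tested over 4 libraries. Fgf8, for example, was low in every sum, at 4.25 to 9.32 in T-positive and 0 to 3.83 in T-negative cells.

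Markers of other cell types were measured beside these results. Mesoderm markers (16 genes) summed to 41.1 to 531 in T-positive and 62.1 to 453 in T-negative cells. Definitive endoderm markers (10 genes, Trh among them) summed to 671 to 762 and to 852 to 1056, and the primordial germ cell list (10 genes, with Nanos3 at 0 on both sides) to 151 to 257 and 44.0 to 119. Visceral endoderm markers (14 genes) summed to 176 to 727 and to 128 to 291, with Afp, Apoa4 and Apom at 0 on both sides. Node and notochord markers (10 genes) summed to 46.6 to 132 and to 61.9 to 69.0. Noto, which defines the node, was at 0 on both sides, and Shh, a gene of node and notochord, was at 0 in T-positive cells. Blood and endothelial markers (11 of 14 in the files) summed to 11.2 to 65.2 and to 0 to 47.9, and Cdh5 was at 0 on both sides. Leaving out the 5 T-positive and 9 T-negative tested cells that held at least 3 transcripts over Hand1, Foxf1, Kdr, Etv2, Tal1, Ttr, Apoa1 and Elf5 left 0 calls (243 at an unadjusted p under 0.05). Of the 3 called genes 1, Dnmt3b, could be tested there, at −0.53 (adjusted p = 0.0682, edgeR). The part of these cells in the differences was not tested further.

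The T-positive cells were also compared among themselves. Cells with at least 3 T transcripts (T-high) were compared with those holding 1 or 2 (T-low) in the 4 libraries with at least 3 of each, replicates 2, 3, 4 and 7, with 18 T-high and 25 T-low cells. This comparison was added after the data were seen. Its libraries differ from those of the contrast with T-negative cells (replicate 2 in place of 12), so its count of calls is not comparable with the 3 above. It called 27 of 3770 genes (0.716%), 15 higher (0.398%) and 12 lower (0.318%) in T-high cells. All are listed here, and those outside the gene lists were named after their values were seen.

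Of the caudal epiblast list, 3 of 8 tested genes were called, Sp5, Grsf1 and Fst, all higher in T-high cells, and 1 of the 8 had a negative value. Calls made up 0.716% of all genes tested. Sp5 was at 294, 264, 262 and 65.7 in T-high and at 17.4, 10.95, 31.5 and 13.6 in T-low cells of replicates 2, 3, 4 and 7, so that the ranges did not overlap, as held for 3.55% of genes tested. Its log2 fold change was 3.51 (SE 0.41; adjusted p = 0.000972, edgeR). Grsf1 stood at 769, 440, 1370 and 295 against 113, 76.7, 94.4 and 67.9, again without overlap, with a log2 fold change of 2.83 (SE 0.26; adjusted p = 7.26e-05). Fst was higher in 4 of 4 libraries with overlapping ranges at 2.06 (SE 0.34; adjusted p = 0.0145), because its T-low level in replicate 2 reached 737. Nkx1-2 was also higher in 4 of 4 libraries, at 1.90, but did not pass (SE 0.42; adjusted p = 0.0548). The share of all genes with 1 sign in every library was not measured for this comparison. Meis2 (1.41; adjusted p = 0.364) likewise missed the threshold.

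Other genes higher in T-high cells have diverse known roles. Cdh2, the mesenchymal and neural cadherin, was at 64.8, 229, 80.6 and 70.3 against 8.68, 47.5, 31.5 and 22.6, with a log2 fold change of 1.95 (SE 0.40; adjusted p = 0.0397, edgeR). Cdh1 had a log2 fold change of 0.12 (SE 0.21; adjusted p = 0.968). Cell cycle regulators were represented by Ccnd2 (1.503; adjusted p = 0.0145) and by Cdkn1a, which encodes the cyclin-dependent kinase inhibitor p21 (2.12; adjusted p = 0.0274). Prtg, the gene of the immunoglobulin superfamily protein protogenin, was 1.23 (adjusted p = 0.0145), and Foxb1, a forkhead gene of the neural plate and anterior ectoderm list, was 1.22 (adjusted p = 0.0463). Alox15, a lipoxygenase gene, had the largest value at 4.22 (SE 0.68; adjusted p = 0.0145), with 93.8 to 212 in T-high cells and 0 in 3 of 4 T-low sums. Its size rests on replicate 7, the 1 library with T-low transcripts, and was 7.69 without it. A gene passes the filter on low counts if it is high enough in as many sums as 1 side holds. Alox15 needed its T-high sums to pass, and Sp5 and Cdh2, low in T-low cells, could pass by T-high sums alone. With the filter lifted, Alox15 (4.21), Sp5 (3.47) and Cdh2 (1.89) were also called. The remaining higher genes were Tceal8, Cxx1a, Sema6a, Zyx, B4galt5 and Pknox2, with log2 fold changes from 0.97 to 2.60.

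Of the neural plate and anterior ectoderm list, 5 of 9 tested members were called, 4 lower and 1, Foxb1, higher. Of all genes tested, 0.716% were called. Otx2 was at 95.02, 0, 0 and 42.2 in T-high and at 156, 486, 480 and 548 in T-low cells. Every T-high value was below every T-low value, and the gap was narrowest in replicate 2. The log2 fold change was −3.04 (SE 0.54; adjusted p = 0.0197, edgeR). The neighbouring Iroquois genes Irx3 and Irx5, which pattern the neural plate, were at −2.24 (adjusted p = 0.043) and −2.47 (adjusted p = 0.0154). Pou3f1 (Oct6), a POU factor of epiblast and neural ectoderm, was at −2.23 (adjusted p = 0.0274). Their ranges did not overlap either, as held in either direction for 3.55% of genes tested.

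The other lower genes included 2 of the epiblast list, Slc7a3 (an arginine transporter gene, −1.97; adjusted p = 0.0176) and Pim2 (−1.09; adjusted p = 0.0274, edgeR). Cldn6, a tight junction gene of epithelia, was at −2.04 (adjusted p = 0.0274). Tcf7l1, which encodes the TCF protein that holds WNT targets silent, was lower at −1.35 (adjusted p = 0.0274). Of 9 tested WNT pathway genes, 1, Tcf7l1, was called lower and 1, Sp5, higher. A link between these 2 genes was not tested. Sparc, a matrix glycoprotein gene, was at −1.52 (SE 0.22; adjusted p = 0.00935). Cgnl1, Gprc5c and Ddah1 completed the list at −2.31 to −2.001. Dnmt3b was lower in 4 of 4 libraries at −0.76 but did not pass (adjusted p = 0.0548).

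**Figure D2:**
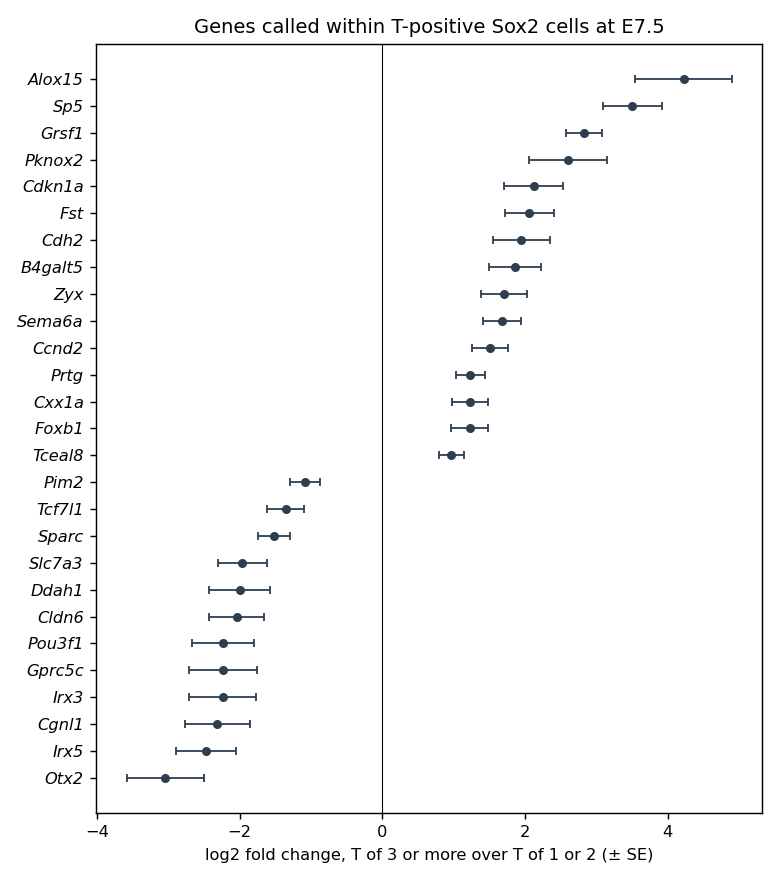
Log2 fold change between T-high (3 or more T transcripts) and T-low (1 or 2) cells for the 27 genes called, with the standard error of the edgeR fit as bars. Values run from −3.04 for Otx2 to 4.22 for Alox15, and 15 genes lie above 0.

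Replicate 4 carried many of these calls. Without replicate 4 the calls fell to 4, of which Sp5 and Grsf1 were among the 27, and all 27 kept their direction. Single libraries moved some folds by more than 1.5 times: Otx2 (−4.49) and Fst (2.84) without replicate 2, Alox15 (3.58) without replicate 3, and Irx3 (−3.84), Cgnl1 (−3.13) and Pou3f1 (−3.06) without replicate 7, each still called. Without replicate 7 there were 17 calls, with the filter on low counts lifted 99, and by DESeq2 12, all 12 within the 27. One T-low cell of replicate 2 held 4 transcripts of Elf5 and 58 of Rhox5, and the extraembryonic ectoderm markers there summed to 1510, against 164 to 401 in the other T-low sums and 229 to 352 in the T-high ones. Removing it left replicate 2 with 2 T-low cells and hence out of the test, and 31 genes were then called, 17 of them among the 27.

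**Figure D3:**
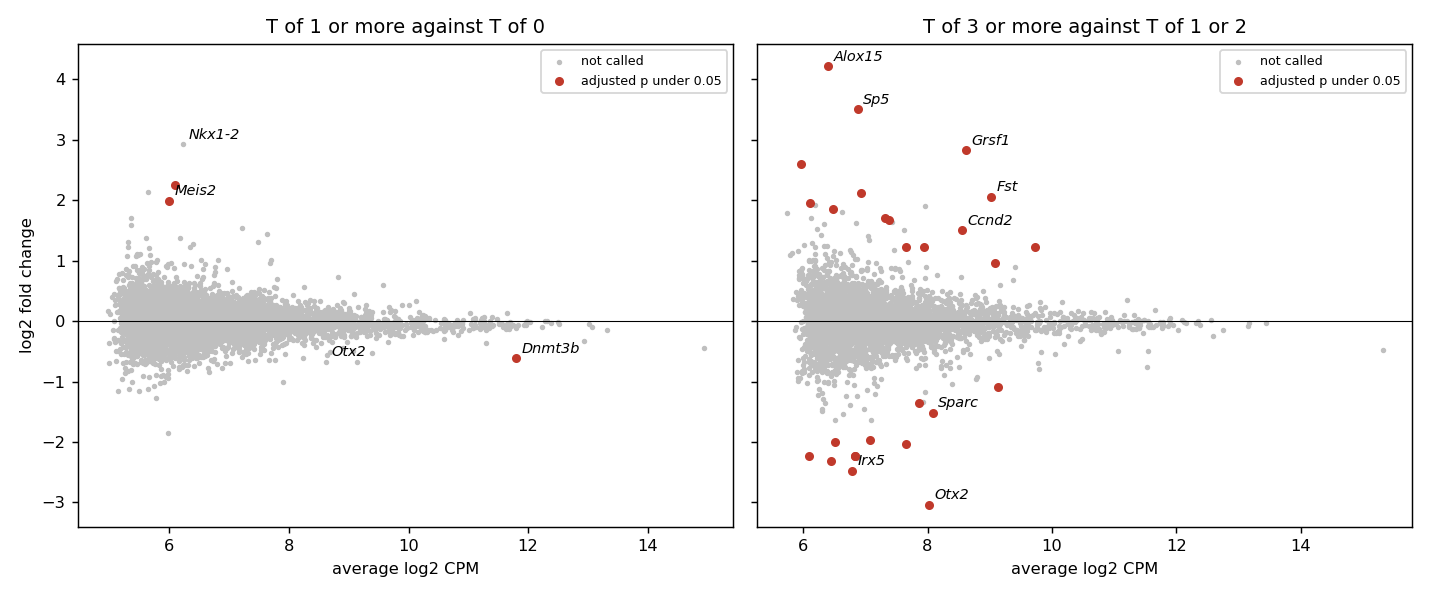
Log2 fold change against average log2 CPM for all genes tested between T-positive and T-negative cells (left, 3 called) and between T-high and T-low cells (right, 27 called). Red points passed an adjusted p under 0.05, and names are printed for 4 genes on the left and 8 on the right.

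T-high and T-low cells were each set against the T-negative cells as well, with T-low cells from replicates 3, 4, 7 and 12 (56 T-negative cells) and T-high cells from replicates 3, 4 and 7 (51 of those T-negative cells). The fits share those cells and differ in replicate 12, so the values are given side by side only. Against T-negative cells, 27 of 4391 genes were called for T-high cells (0.615%; 15 higher, 0.342%, and 12 lower, 0.273%; replicates 3, 4 and 7), and 0 of 4477 for T-low cells (127 at an unadjusted p under 0.05; edgeR). Otx2 was −4.47 for T-high and −0.15 for T-low cells, Pou3f1 −2.14 and 0.40, Grsf1 2.59 and −0.20, and Dnmt3b −1.26 and −0.40. The same pair of values was 3.30 and 0.11 for Fst. Hoxb1 was 6.42 for T-high cells (adjusted p = 3.7e-05) and was too low for a test in T-low cells. Being low in T-negative cells, it could enter the T-high test through the T-high side alone.

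Shares of cells with a transcript are described here without a test over all 129 members. Of these, 3 T-positive cells held at least 3 Elf5 transcripts: the T-low cells of replicates 2 and 12 named above and a T-high cell of replicate 10 with 11 of Elf5, 52 of Rhox5 and 29 of Eomes. Hoxb1 was found in 23 of 26 T-high cells (88.5%, exact 95% binomial interval 69.8% to 97.6%), in 5 of 33 T-low cells (15.2%, 5.11% to 31.9%) and in 15 of 70 T-negative cells (21.4%, 12.5% to 32.9%). Median depths of the 3 classes were 30673, 30436 and 30654 transcripts. With each cell thinned to 2000 transcripts, the shares were 46.2%, 3.03% and 0%. Nkx1-2 was in 24, 11 and 15 cells of the 3 classes, and thinned shares were 38.5%, 6.06% and 2.86%. In the E6.75 visceral endoderm cells used as background, Hoxb1 was in 0 of 18 cells and Nkx1-2 in 1 of 18, but these cells come from libraries of another stage and protocol and do not measure free RNA in the E7.5 libraries. Without the 3 cells with Elf5, Hoxb1 was in 22 of 25 T-high and 4 of 31 T-low cells and Nkx1-2 in 23 of 25 and 11 of 31. Intervals cover counting error only and treat cells as independent, which cells of 1 library are not. The classes were also spread unevenly over libraries. Replicate 2 gave 7 T-high and 2 T-negative cells, replicate 3 gave 3 and 18, and replicate 4 gave 5 and 26. T class and library are therefore partly mixed in all shares given here and below.

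Further caudal and streak genes were found in a larger share of T-high cells. Cdx1, a homeobox gene of the caudal embryo, was in 15 T-high, 3 T-low and 0 of 70 T-negative cells, which allows up to 4.29% of cells with a captured transcript (3 of 70) and sets no limit on cells that express the gene. Cdx2 was in 18, 5 and 9 cells, Evx1 in 18, 3 and 5, and Wnt3a, a WNT ligand needed for trunk mesoderm, in 11, 0 and 1. Mixl1 and Tbx6, homeobox and T-box genes of the streak and early mesoderm, were each in 14 T-high cells, in 1 and 3 T-low cells and in 2 and 4 T-negative cells. Eomes was less divided, in 17, 13 and 24 cells. Fgf8, Fgf17 and Cdx4 of the caudal epiblast list were scarce, in 9, 4 and 4 cells, in 5, 1 and 0, and in 2, 1 and 1. Cyp26a1, also of that list and the gene of the enzyme that clears retinoic acid, ran differently. It was in 2 of 26 T-high, 10 of 33 T-low and 11 of 70 T-negative cells.

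Several anterior genes were found in a smaller share of T-high cells. Otx2 was in 10 of 26 T-high cells (38.5%, 20.2% to 59.4%), 25 of 33 T-low cells (75.8%, 57.7% to 88.9%) and 60 of 70 T-negative cells (85.7%, 75.3% to 92.9%). Six3, a gene of the most anterior neural plate, was in 1, 9 and 26 cells, and Irx3 in 8, 24 and 41. Sox1, a neural gene, was in 3, 5 and 14 cells (11.5%, 15.2% and 20%), with overlapping intervals. The surface ectoderm gene Tfap2a was in a like share of each class (23.1%, 24.2% and 18.6%). Some caudal epiblast markers were thus in most T-high cells (Nkx1-2 in 24, Evx1 and Cdx2 in 18 each) and in fewer T-low cells. Others were in few T-high cells (Fgf17 in 5, Cyp26a1 in 2). Streak genes were also frequent in T-high cells (Eomes in 17, Mixl1 in 14). The streak and nascent mesoderm list summed to 431 to 2058 CPM in T-high and 157 to 477 in T-low cells. These markers therefore do not separate caudal epiblast from streak. The name ectoderm for T-negative cells covers cells of which 60 held Otx2 and 15 held Hoxb1.

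**Figure D4:**
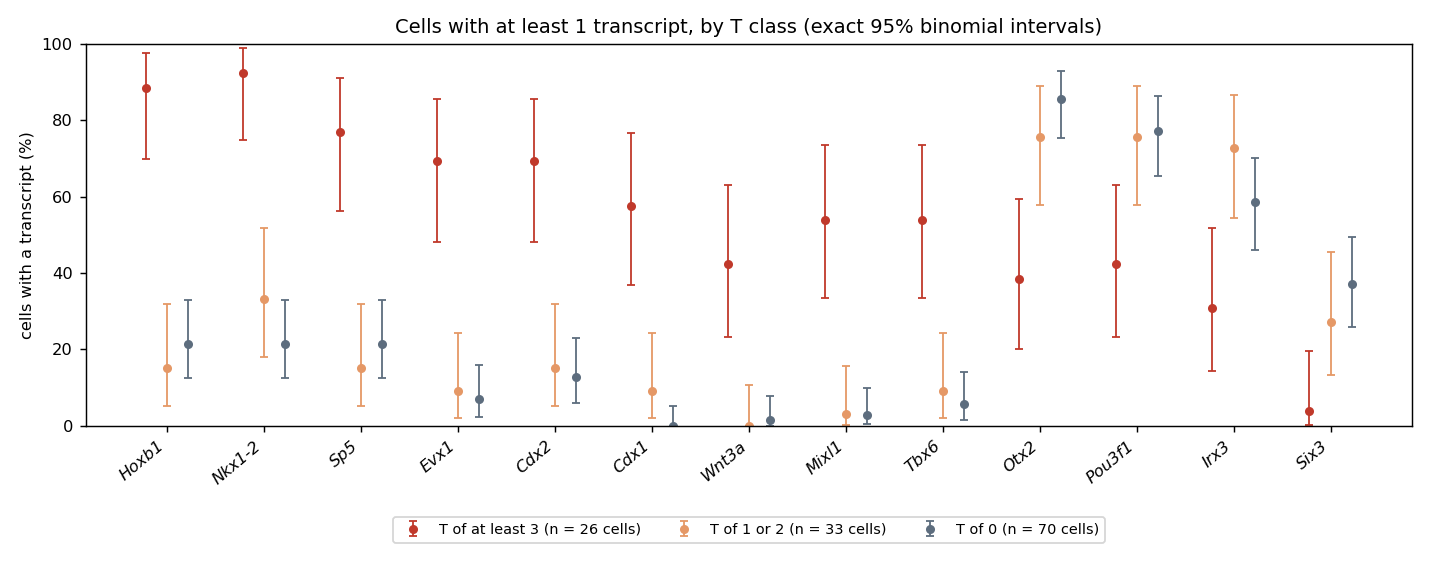
Share of cells with at least 1 transcript of 13 genes in T-high (26), T-low (33) and T-negative (70) members at E7.5, with exact 95% binomial intervals. T-high cells stand above the other classes for Hoxb1 through Tbx6 and below them for Otx2, Pou3f1, Irx3 and Six3.

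Pairs of genes were read within cells. Nkx1-2 and Hoxb1 were together in 22 of 26 T-high cells, in 3 of 33 T-low cells and in 3 of 70 T-negative cells. Mixl1 and Nkx1-2 were together in 13 T-high cells, so that 13 of the 14 T-high cells with Mixl1 also held Nkx1-2. Hoxb1 and Otx2 met in 8 T-high cells, while 15 held Hoxb1 alone and 2 held Otx2 alone. All 15 T-negative cells with Hoxb1 also held Otx2, which was in 60 of all 70 T-negative cells. These 15 cells held 18 Hoxb1 transcripts in all, at most 3 in a cell, and free RNA in the E7.5 libraries was not measured. Otx2 and Six3 were together in 0 T-high, 9 T-low and 25 T-negative cells.

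The same rule at E6.75 gave 271 cells, 55 T-positive and 216 T-negative, and all 6 libraries entered. There, 54 of 7470 genes differed by T (0.723%; 42 higher, 0.562%, and 12 lower, 0.161%; edgeR with the library as block). This count comes from a joint fit of 10 libraries of both stages. It is not comparable with the 3 calls at E7.5, from a separate fit of 4 libraries. In the joint fit, the test of the change between stages called 1 gene (0.0134%). This was Id1, an inhibitor of basic helix-loop-helix factors and a target of BMP signals. Its level at E6.75 was 19.4 to 182 in T-positive (median 153) and 6.24 to 64.0 in T-negative cells (median 43.4). At E7.5 it was 84.0, 119, 142 and 103 in T-positive and 125, 129, 133 and 314 in T-negative cells of replicates 3, 4, 7 and 12. The T contrast was 1.62 (SE 0.23) at E6.75 and −0.46 (SE 0.30) at E7.5, a change of −2.08 (SE 0.38; adjusted p = 0.0495). The E7.5 difference leaned on replicate 12: without it the E7.5 contrast, fitted alone, was −0.205 (SE 0.23) and the change between stages was −1.825 (adjusted p = 0.0438, edgeR). This call was lost without the block, with no TMM factors, by DESeq2, and without any 1 of 5 E6.75 libraries (the exception was replicate 1_10) or E7.5 replicate 3 or 4.

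The T contrast of Crabp2 changed by 1.82 (SE 0.36), from −0.95 at E6.75 to 0.88 at E7.5, which did not pass (adjusted p = 0.0857, edgeR). Dnmt3b and Otx2 were lower in T-positive cells at E6.75, with −0.29 (adjusted p = 0.0374) and −0.44 (adjusted p = 0.0249), and neither contrast was shown to differ between stages (adjusted p = 0.861 and 0.981). Eomes, which was 1.40 at E6.75 (adjusted p = 1.14e-07), was 0.93 at E7.5 (SE 0.44) with a change of −0.47 (SE 0.47; adjusted p = 0.981).

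**Figure D5:**
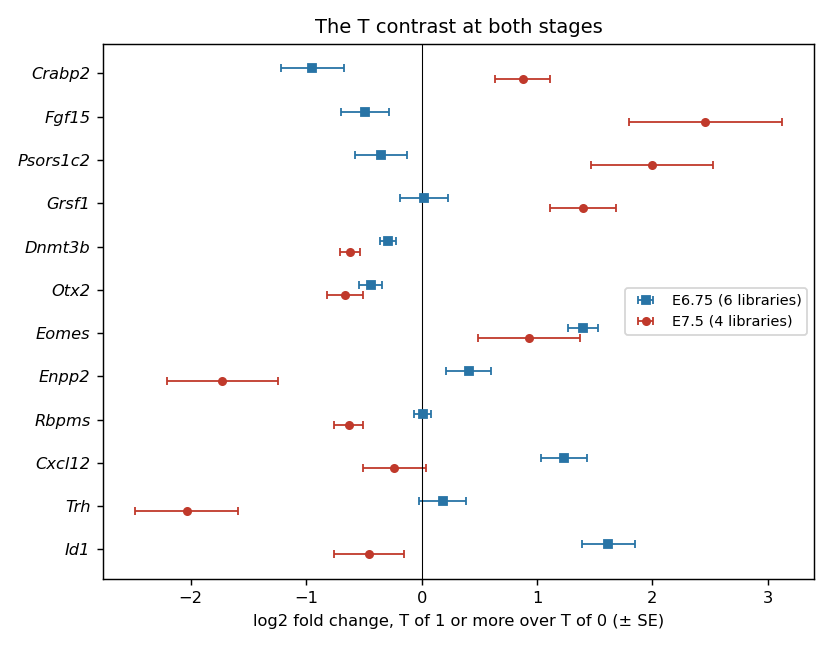
Log2 fold change of T-positive over T-negative Sox2 cells at E6.75 (blue squares) and E7.5 (red circles) for 12 genes, with the standard error of the joint edgeR fit as bars. Id1 lies at 1.62 and −0.46, and Dnmt3b and Otx2 lie below 0 at both stages.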

How the data were processed

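Per the submitters' processing notes, bcl2fastq 2.17.1.14 and BWA 0.6.2-r126 were used. Their roles, the genome build and any use of strand are not given in the sources used here. The deposited values are expected counts, 1 per gene and barcode: each equals −K ln(1 − k/K) of a whole number k of observed molecular identifiers, with K = 4096, to within 4.09e-12, so the authors had corrected for identifier collisions and not for depth. Each library drew on 1 set of 192 barcode columns, of which the 96 in use held at least 96.7% of transcripts. ERCC and mitochondrial rows were left out, leaving 22997 genes. No doublet caller was run. Cells with at least 2000 transcripts, Sox2 of at least 1, and no Mesp1 or Foxa2 were divided by T, and expected counts, rounded to whole numbers, were summed per library and side. No 2 libraries of a stage had counts that agreed within sampling noise (chi-square per degree of freedom of at least 2.01).

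Sums were compared with edgeR 4.0.16 (TMM, filterByExpr, quasi-likelihood F test, Benjamini-Hochberg at 0.05) with the library as block, since both kinds of cell come from the same library. T, Sox2, Mesp1 and Foxa2 were left out of the tests. The filter can keep a gene that is high on 1 side only, so calls of genes near 0 on the other side are not independent of it. DESeq2 1.42.0, no block, no filter, other gates, thinned cells and leaving out each library were alternatives. Positions are from GENCODE (GRCm38) and upstream sequences from RefSeq. The procedure was tested on simulated data. Named genes were 36 genes given in a list, called genes of 1 sign in every library with at least 30 CPM, up to 4 genes with the smallest p of each of 23 lists, and the 5 genes with the smallest p in each direction for the change between stages. Any other gene was named after its values were seen. Some named genes are not reported here. The members, the gene lists and the rules were chosen with earlier results of these data known.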

Additional observations from a re-analysis of the deposited data

Results flagged for a closer look

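With 4 libraries a side, a value was singled out where its gap to the nearest other exceeded Dixon's 95% critical share of the group's range. Over 44 groups examined, chance gives about 1 in 20. Grsf1 in T-positive cells was highest in replicate 4, at 608 CPM. Ccnd2 in T-negative cells was highest in replicate 3 (219) and Trh in T-negative cells was highest in replicate 7 (238). Pou3f1 in T-positive cells was highest in replicate 12 (401), the library in which 1 T-positive cell held 15 Elf5 transcripts. Irx3 was lowest in replicate 4 among T-positive cells (74.0) and in replicate 7 among T-negative cells (14.3). The T contrast of Id1 differed between E6.75 and E7.5 by −2.08 on the log2 scale (adjusted p = 0.0495, edgeR interaction test), and stage, collection and protocol cannot be told apart.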

How the results depend on the processing

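Both sides of a contrast come from the same library, so the library is a true block. Without the block the T-positive contrast called 0 genes in place of 3, the stage contrast 0 in place of 1, and the T-high against T-low contrast 16 in place of 27. DESeq2 gave 0, 0 and 12, no filter on low counts 39, 17 and 99, and no TMM factors 3, 0 and 30. For the T-positive contrast, thinned cells, T of 1 or 2, Sox2 of at least 2 and cells with Hoxb1 gave 0 calls each, T of at least 3 gave 27 and at least 5 cells per side gave 26 (5 for the stage contrast). Chosen after seeing the data, leaving out cells with defining markers of other types and using all libraries with 3 or more cells on a side gave 0 each, and leaving out cells with Elf5 gave 12. Leaving out 1 library at a time gave 0 to 26 calls for the T-positive contrast, 0 to 5 for the stage contrast, 4 to 31 for T-high against T-low cells, and −0.287 to 0.352 for the log2 depth difference. Thinning before the gates, and the planned removal of all cells with other markers, left 1 library each and could not be run.

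No called gene turned its direction. Of uncalled genes, Pou3f1 changed sign with no block (0.148), DESeq2 (0.020), no TMM factors (0.029), cells of at least 5000 transcripts (0.021), T of 1 or 2 (0.395) and Sox2 of at least 2 (0.042), and ranged from −0.509 to 0.261 over left-out libraries. Irx3 and Irx5 changed sign with T of at least 3 (−0.595 and −0.685), cells with Hoxb1 (−0.016 and −0.228) and all libraries (−0.220 and −0.129), and ranged from −0.131 to 0.762 and from −0.034 to 1.010 over left-out libraries. Grsf1 was −0.200 with T of 1 or 2, Trh 0.319 with all libraries, Pou5f1 0.152 with T of at least 3 and 0.130 with Hoxb1, Vim −0.128 with Hoxb1, and Fn1 −0.017 with Sox2 of at least 2 (−0.013 to 0.531 over left-out libraries). The cause of these changes was not tested. At 116003 to 522008 summed T-positive transcripts per library, genes such as Fgf8 could not be tested.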
